A study of Mus musculus with 24 samples.

Results

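Whole-lung gene expression was compared between mice given 1 of 5 carbon nanomaterials and mice given vehicle. The members were the samples whose titles name tCNT, SES, BayTubes, Graphite or fullerene, which are 18 of the 24 samples of the study. They were set against the 3 samples titled Ctrl, with each material given equal weight. The 3 remaining samples, titled rCNT, entered the fit for its estimate of spread and were set against the mean of the 5 materials. The materials tCNT and SES had 3 samples apiece, and the others had 4.

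All mice were female C57BL/6 of 7 to 8 weeks. On each of 4 days they received 10 µg of a material in 50 µl of phosphate-buffered saline (PBS), or PBS alone for Ctrl, by oropharyngeal aspiration, which lets the animal inhale a droplet from the throat. Dissection followed 24 h after the final dose, and the labels do not give the hour of day. RNA of 2 mice of a group was pooled into each sample, so n counts pools and not animals. The names rCNT and tCNT stand for carbon nanotubes. BayTubes is a commercial multi-walled nanotube, graphite is stacked carbon sheets and a fullerene is a closed carbon cage. The labels do not explain the name SES.

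Particles that reach the alveoli are taken up by macrophages, which can release chemokines that draw monocytes and neutrophils out of the blood. The airway lining responds with acute phase proteins and mucus, and its multiciliated cells sweep mucus and particles upward. Lung cells also run a circadian clock, in which Bmal1 (gene symbol Arntl) drives genes such as the Per and Nr1d families that feed back on it.

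The 24 samples were read on 12 arrays of 2 dyes, each dye carrying its own sample, on 3 slides. Ctrl 1 and Ctrl 3 lay on slide 2 and Ctrl 2 on slide 1, and no Ctrl sample lay on slide 3. Their array partners were Graphite 13, BayTubes 20 and BayTubes 18. Values are log2 signals, and the number of samples limits their precision. The labelled tissue was checked on markers of lung epithelium. Sftpc, the surfactant protein of alveolar type 2 cells, lay between 17.15 and 17.97 in the 18 samples, and Scgb1a1, the secretory protein of club cells, between 17.09 and 17.97. For Sftpc the value 17.97 recurred in several samples, so differences near it are hard to read. The residual SD after the fit ranged from 0.16 to 0.495 over the samples, with the highest values in rCNT 4, Graphite 16 (0.43) and Graphite 13 (0.389).

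In the mean of the 5 materials, some chemokines, acute phase, mucus and cell cycle genes and 3 markers of multiciliated cells rose. The clock gene Arntl and the matrix protein gene Spon2 fell. Of 16530 genes tested, 222 (1.34%) passed an adjusted p of 0.05 (limma), 170 higher (1.03%) and 52 lower (0.315%) than in Ctrl. At an unadjusted p under 0.05 there were 2377 genes. Most called changes were modest, with 142 of at least 1.5-fold and 39 of at least 2-fold, of which 36 were higher and 3 lower. The called rises ran from 0.34 to 2.07 and the deepest fall was -1.30 on the log2 scale. The median change over all genes tested was 0.01, and 51.9% of them were above 0.

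**Figure D1:**
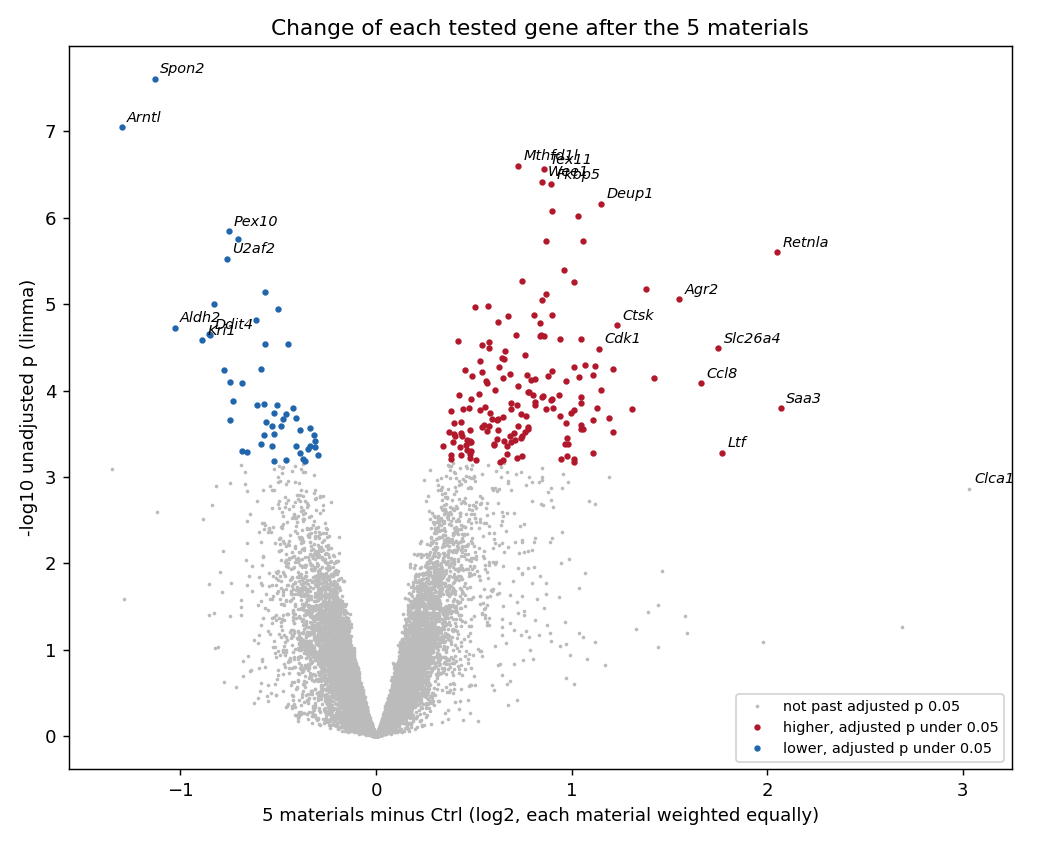
Change of each tested gene (log2, 5 materials minus Ctrl) against -log10 of the unadjusted p, with genes past an adjusted p of 0.05 in red (170 higher) and blue (52 lower). Spon2 and Arntl have the smallest p-values, Saa3 and Retnla the largest called rises, and Clca1 has a larger estimate that did not pass.

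The samples were also compared one by one. In 194 genes (1.17%) all 18 samples lay above all 3 Ctrl samples, and in 52 (0.315%) all 18 lay below. Of these, 98 and 25 were called by the fit. Within slide 1, where 10 samples of the 5 materials met 1 Ctrl sample, 221 of the 222 called genes kept their direction, as did 221 within slide 2, where 5 samples met 2 Ctrl samples. No tCNT sample lay on slide 2, so every value within slide 2 is a mean of the other 4 materials. Both Ctrl samples of slide 2 carried the same dye, and Graphite was the only group with both dyes there. The dye term within slide 2 therefore rested on Graphite 13 and Graphite 14. Fitted changes there can differ from differences of group means. These fits share their samples with the pooled one and are not separate evidence. Fits within a slide left 1 sample in some groups, so their number of calls says little about the 222. The number called was 385 with slide as a term in the full fit, of which 214 were among the 222. With array as a fixed term it was 0 (limma), against 2262 genes at an unadjusted p under 0.05. The median change of the higher genes was 0.42 within slide 1 and 0.52 within slide 2, below the 0.74 of the pooled fit. For the lower genes it was -0.42 and -0.57, against -0.55 in the pooled fit.

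The calls rested on the 3 Ctrl samples. Leaving out Ctrl 1, Ctrl 2 or Ctrl 3 left 14, 11 and 52 genes called. Leaving out a treated sample moved the count by over 1.5 times for tCNT 7 (360), SES 12 (132) and BayTubes 20 (144). With BayTubes out of the pooled mean the count was 56, and with SES out it was 385. Of the 222 genes, 7 remained called whichever of the 24 samples was left out: Arntl, Spon2, Mthfd1l, Wee1, Tex11, Fkbp5 and Deup1. Every other called gene lost its call without at least 1 of the 3 Ctrl samples.

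**Figure D2:**
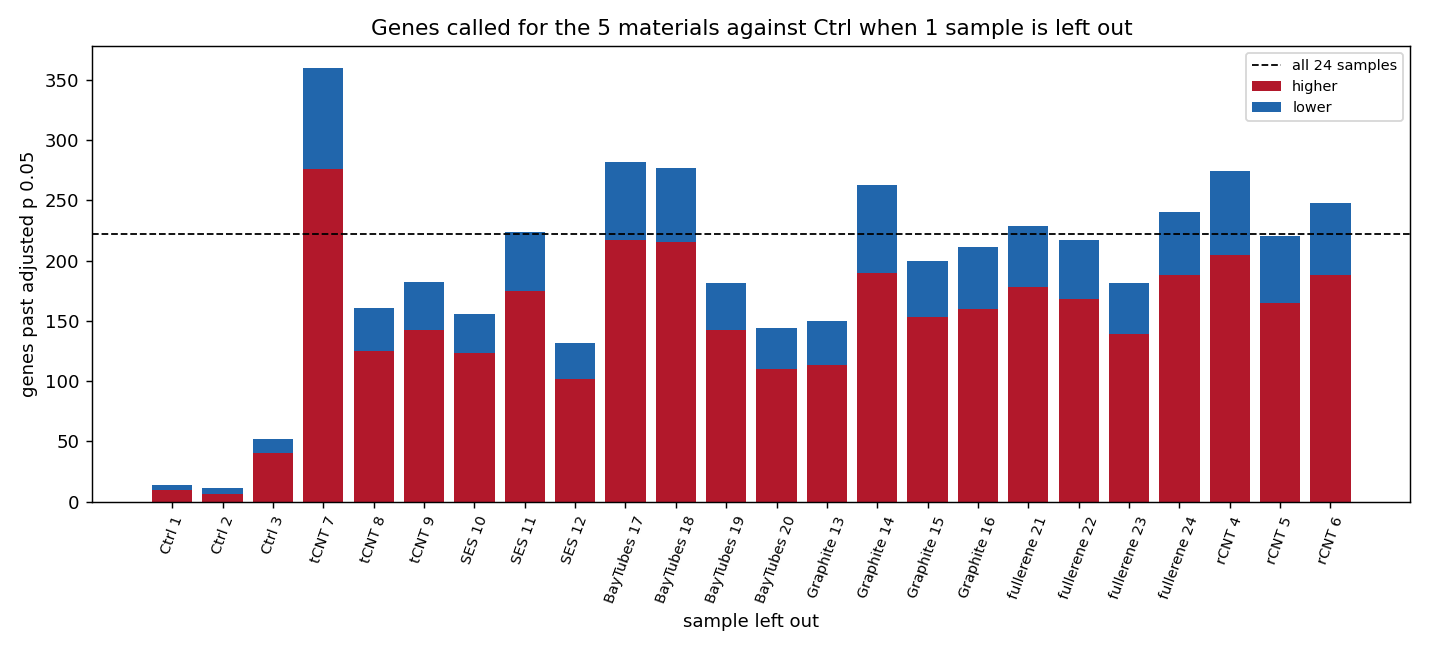
Number of genes past an adjusted p of 0.05, 5 materials against Ctrl, after leaving out the sample named under each bar, split into higher (red) and lower (blue) genes. The dashed line marks 222 genes with all 24 samples; the 3 bars without a Ctrl sample stand at 14, 11 and 52.

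Monocyte-attracting chemokines and the acute phase gene Saa3 rose. Ccl8, a chemokine that attracts monocytes, lay at 7.68, 7.64 and 8.21 in Ctrl 1, 2 and 3 and between 8.26 (SES 11) and 11.18 (BayTubes 17), with a median of 9.41, in the 18 samples. No sample overlapped with Ctrl, although SES 11 came close to Ctrl 3. The fitted rise was 1.66 ± 0.34 (SE, n = 18 against 3), or 3.17-fold (adjusted p = 0.0164). It was 0.98 within slide 1 and 1.02 within slide 2. Ccl2, the main ligand of the monocyte receptor Ccr2, rose by 1.31 ± 0.28 (adjusted p = 0.0232), and only SES 11 (7.43) fell within the Ctrl range of 6.88 to 7.53.

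Of 18 chemokines and cytokines tested for monocytes and neutrophils, 5 rose and none fell, with a median change of 0.73. The other 3 were Ccl12 at 1.05 ± 0.22, the macrophage chemokine Ccl6 at 0.74 ± 0.16 and the neutrophil attractant Cxcl1 at 0.94 ± 0.23. Without Ctrl 1, Ctrl 2 or Ctrl 3 in turn, 0 of the 18 were called, while 7 were called without fullerene 21 and 4 without Graphite 13. Within slide 2 the fitted change of Ccl12 was 0.17 and that of Cxcl1 was -0.05, against 0.82 and 0.56 within slide 1. In both genes all 18 samples nevertheless lay above Ctrl. The dye term within slide 2 rested on Graphite 13 (8.35 in both genes) and Graphite 14 (6.99 and 6.91), so these slide 2 values depend on that pair. Ccr2 itself, which marks recruited monocytes, was at 0.70 ± 0.27 (adjusted p = 0.225). The level of the 15 markers of monocytes and recruited macrophages, averaged after centring each gene on its mean over the 24 samples, ran from -0.60 to -0.48 in Ctrl and from -0.45 to 0.47 in the 18 samples, without overlap. The same level for 14 neutrophil markers was -0.46 to -0.36 in Ctrl and -0.39 to 1.48 in the 18 samples. The part of these cells in the chemokine values was not tested.

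Saa3, a serum amyloid A made at sites of inflammation, had the largest called rise. Its values were 7.94, 7.99 and 8.30 in Ctrl, and from 8.79 (fullerene 23) to 12.35 (fullerene 21), median 10.50, in the treated samples. All 18 lay above Ctrl, and the spread was widest in fullerene, where 3 samples lay between 8.79 and 8.93 and fullerene 21 stood alone. The change was 2.07 ± 0.44, or 4.19-fold (adjusted p = 0.0232), and 1.76 and 2.14 within slides 1 and 2. The fibrinogen chain gene Fgg rose by 0.73 ± 0.16 (adjusted p = 0.0293). These were 2 of 15 acute phase genes tested, whose median was 0.30, and Saa1 at 0.95 ± 0.29 (adjusted p = 0.127) did not pass. Without any 1 of the Ctrl samples 0 of the 15 were called, and without fullerene 21 there were 3.

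Of the mucus and type 2 genes, a programme linked to allergy and helminth defence, 4 of 27 rose. Retnla, a secreted protein of macrophages and epithelium in type 2 responses, lay at 13.92, 13.78 and 13.47 in Ctrl. In the 18 samples it ran from 13.38 (Graphite 14) to 16.93 (tCNT 8), median 15.69. Graphite 14 lay below all Ctrl samples and the other 17 above them. The rise was 2.05 ± 0.31, or 4.13-fold (adjusted p = 0.00298), but 0.46 within slide 2, against 1.70 within slide 1. Slide 2 held no sample of tCNT, the material with the highest estimate for Retnla (2.92 ± 0.42). SES 10, BayTubes 20 and fullerene 22 on slide 2 lay at 15.41, 16.49 and 15.62, against 13.92 and 13.47 in Ctrl 1 and Ctrl 3. The dye term within slide 2 rested on Graphite 13 (15.67) and Graphite 14 (13.38), so the fitted 0.46 depends on that pair. The call of Retnla was lost without Ctrl 2 (limma adjusted p = 0.0541).

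Slc26a4, the anion exchanger pendrin of airway epithelium, stood at 7.49, 8.08 and 7.99 in Ctrl and from 8.56 (Graphite 15) to 10.77 (BayTubes 20), median 9.40, after the materials. No sample overlapped with Ctrl. It rose by 1.75 ± 0.33 (adjusted p = 0.0104), with 0.87 within slide 1 and 1.70 within slide 2. Agr2, needed to fold mucins, rose by 1.55 ± 0.26 (adjusted p = 0.00637). Its Ctrl values of 7.13, 6.90 and 7.58 were exceeded by 17 of the 18 samples, and fullerene 24 (7.49) lay among them. The epithelial alarm cytokine Il33 rose by 0.67 ± 0.16 (adjusted p = 0.0381), and all 18 samples lay above the Ctrl values of 11.31, 11.28 and 11.19.

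These were the called members of that list, with none lower and a median of 0.47. Without Ctrl 1, 2 and 3 in turn, 1, 0 and 2 of the list were called, and 7 without the array shared by rCNT 4 and Graphite 16. The largest estimate of the list was Clca1, a product of mucus cells, at 3.03 ± 0.81 (adjusted p = 0.0726). Its values ran from 6.63 (Graphite 13) to 14.21 (tCNT 7) against 7.33, 7.14 and 7.61 in Ctrl, with 17 samples above Ctrl and Graphite 13 below. As samples were left out in turn, its adjusted p ran from 0.0325 to 0.398. Ccl24, which attracts eosinophils, was at 0.40 ± 0.36 (adjusted p = 0.651) after the 5 materials.

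Among the 12 largest rises were also Ltf, AA467197 and Fxyd4. Ltf, the iron-binding protein lactoferrin, rose by 1.77 ± 0.43 (adjusted p = 0.0433), but Ctrl itself spread from 7.45 (Ctrl 2) to 9.73 (Ctrl 3), and the call was lost in 14 of 24 left-out fits. AA467197 rose by 1.42 ± 0.28 (adjusted p = 0.0159). Its 18 values of 7.86 to 10.00 all lay above the Ctrl values of 7.47, 7.06 and 7.30. Fxyd4, a regulator of the sodium pump, rose by 1.21 ± 0.24 (adjusted p = 0.0147) from Ctrl values of 6.73, 6.76 and 6.72. Its lowest treated value was 7.11, in Graphite 15, and the change was 0.36 within slide 1 and 1.07 within slide 2.

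Ctsk, a protease of lysosomes that cuts collagen, rose by 1.23 ± 0.22 (adjusted p = 0.00855). Its levels were 10.63, 11.19 and 11.05 in Ctrl and 11.00 to 13.31, median 12.14, after the materials, with fullerene 24 alone inside the Ctrl range. The proton pump subunit Atp6v0d2 rose by 0.60 ± 0.14 (adjusted p = 0.0372). These were 2 of 19 lysosomal genes tested, whose median was 0.09, and without Ctrl 1, 2 and 3 in turn 0, 0 and 1 were called. Among 20 scavenger and particle receptors 1 rose, Cd14, the co-receptor for bacterial lipopolysaccharide, by 0.64 ± 0.12 (adjusted p = 0.0125), and the list median was 0.34. Cd14 is also the 1 called marker among 15 of monocytes and recruited macrophages, whose median was 0.32, and it was not called without any of the Ctrl samples. In whole-lung RNA, more cells of a type and more RNA per cell cannot be told apart.

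**Figure D3:**
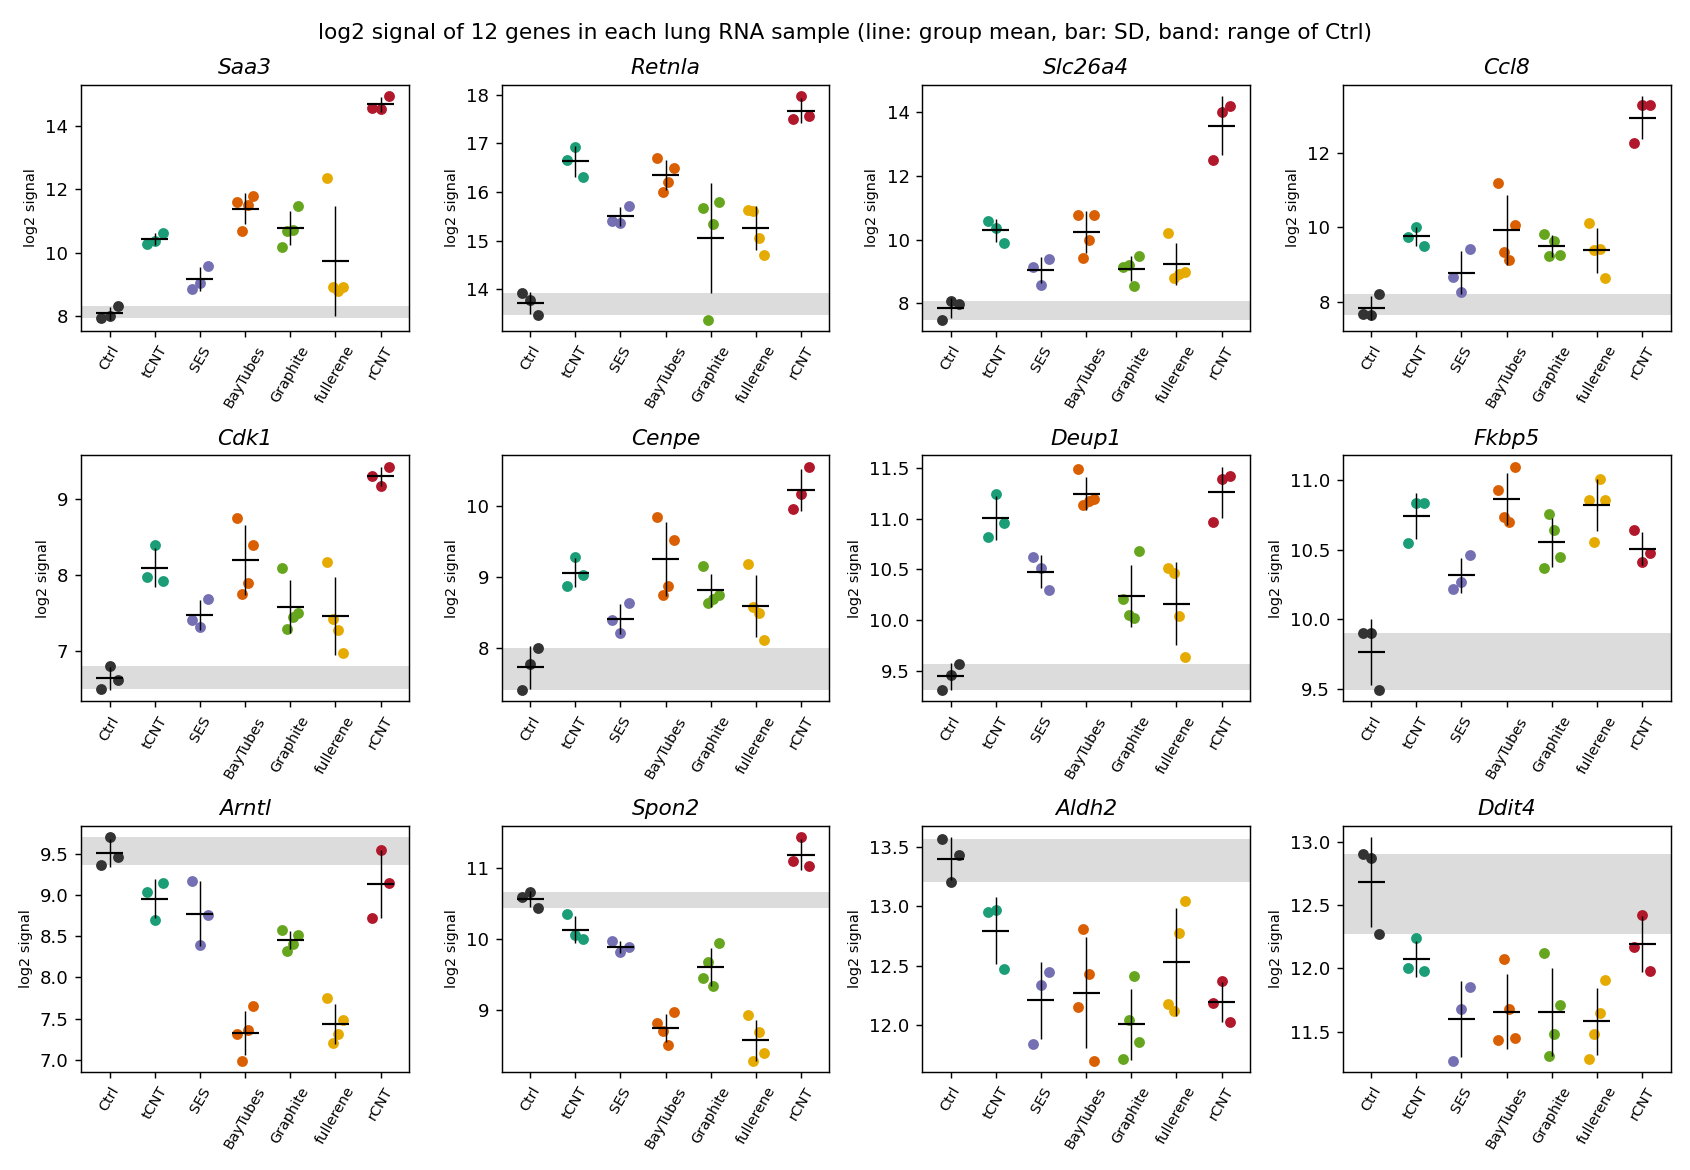
log2 signal of 12 genes in every sample, by group, with the group mean (line), SD (bar) and the range of Ctrl (grey band). In Saa3, Slc26a4, Ccl8, Cdk1, Cenpe, Deup1 and Fkbp5 all 18 samples of the 5 materials lie above the Ctrl band and in Arntl, Spon2, Aldh2 and Ddit4 all lie below it, while in Retnla Graphite 14 (13.38) lies under the band.

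Many genes of mitosis rose. Cdk1, the kinase that starts mitosis, lay at 6.49, 6.80 and 6.62 in Ctrl and from 6.97 (fullerene 24) to 8.75 (BayTubes 17), median 7.72, after the materials. No sample overlapped with Ctrl. The rise was 1.14 ± 0.21, or 2.21-fold (adjusted p = 0.0104). Cenpe, a motor protein of the kinetochore, rose by 1.11 ± 0.22 (adjusted p = 0.0156), and Cdc20, which activates the ligase that ends metaphase, by 1.05 ± 0.22 (adjusted p = 0.0226). The S phase and mitosis cyclin Ccna2 rose by 1.21 ± 0.28 (adjusted p = 0.0316), from 7.56, 7.73 and 7.87 in Ctrl to between 8.08 and 9.80.

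Of 32 cell cycle genes tested, 14 rose and none fell, and the median of the list was 0.73. All 32 estimates were above 0, against 51.9% over all genes. Without Ctrl 1, Ctrl 2 or Ctrl 3 the number called was 0 (limma), and without Graphite 13 it was 5. At an unadjusted p under 0.05, with all samples, 26 of the 32 were higher. Mki67, the proliferation antigen, passed narrowly at 1.01 ± 0.25 (adjusted p = 0.0496) and lost its call in 18 of 24 left-out fits. Within slides 1 and 2 the fitted change of Cdk1 was 0.44 and 0.65 and that of Ccna2 was 0.29 and 0.73, lower than the pooled values on both slides. The slide 2 values depend on the dye term there, which rested on Graphite 13 and Graphite 14. That pair lay at 8.09 and 7.29 for Cdk1 and at 9.35 and 8.44 for Ccna2. In both genes all 18 samples lay above Ctrl.

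Promoters of mitotic genes are known for pairs of CCAAT boxes, bound by NF-Y, and for a TTTGAA element near the start, the core of the cell cycle homology region. Stretches of 3 such promoters are shown because these genes rose. The 100 bases before the annotated start of each, 5′ to 3′ on the gene's strand, carry matches to CCAAT or TTTGAA (or their complements ATTGG and TTCAAA) in capitals. They are RefSeq sequence of build GRCm38.p6, at chr10:69352913-69353012 (minus strand) for Cdk1, chr4:118437344-118437443 (minus) for Cdc20 and chr3:135212463-135212562 (plus) for Cenpe.
Cdk1: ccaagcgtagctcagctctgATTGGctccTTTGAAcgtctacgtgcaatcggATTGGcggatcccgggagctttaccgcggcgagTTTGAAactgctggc
Cdc20: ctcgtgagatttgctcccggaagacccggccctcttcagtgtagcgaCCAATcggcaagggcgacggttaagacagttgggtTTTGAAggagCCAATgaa
Cenpe: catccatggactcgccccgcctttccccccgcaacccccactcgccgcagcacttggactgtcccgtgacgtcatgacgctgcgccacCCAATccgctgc

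Cdk1 held CCAAT on the other strand at bases -80 and -48 and TTTGAA at -71 and -15, counted back from the start. Cdc20 held CCAAT at -53 and -8 and TTTGAA at -18, and Cenpe a single CCAAT at -12. In the 250 bases before the start, on either strand, CCAAT occurred in 9 of the 11 called cell cycle genes with a promoter window, against 34.5% of all 27025 genes with one. TTTGAA occurred in 5 of the 11, against 16.3% of all. Of the 170 higher genes 135 had a window, of which 47.4% held CCAAT and 20.0% TTTGAA. These are counts of letters and were not tested.

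Of 18 markers of multiciliated cells tested, Deup1, Ccno and Myb were called higher and none lower. Foxj1, the master regulator of motile cilia, was not called. Deup1 builds the deuterosome, on which the many centrioles of a multiciliated cell form. It lay at 9.31, 9.46 and 9.57 in Ctrl and from 9.64 (fullerene 24) to 11.49 (BayTubes 17), median 10.57, with no overlap. The rise was 1.15 ± 0.16, or 2.21-fold (adjusted p = 0.00164), with 0.93 and 1.03 within slides 1 and 2. Ccno, a cyclin needed to multiply those centrioles, rose by 0.96 ± 0.15 (adjusted p = 0.00416), and Foxn4, a transcription factor of the same step that is not on the list and was chosen after its value was seen, by 1.03 ± 0.15 (adjusted p = 0.00178). Myb, which acts early in the same cells and also in dividing cells, rose by 0.62 ± 0.11 (adjusted p = 0.00824), with all 18 samples above Ctrl. Ccna1, a cyclin named by its size of change, rose by 1.38 ± 0.23 (adjusted p = 0.0058).

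The median of the 18 markers was 0.29, and 15 estimates were above 0. At an unadjusted p under 0.05 (limma) 10 were higher and 1 lower, and with slide as a term 5 were called higher. Without Ctrl 1, 2 and 3 in turn 1, 1 and 2 of the list were called. Foxj1 was at -0.24 ± 0.14 (adjusted p = 0.461), with 3 samples above and 12 below the Ctrl values of 10.56, 10.18 and 10.11. The cilium protein gene Tekt1 was at 0.36 ± 0.11 (adjusted p = 0.104).

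RFX factors, which act in ciliated cells, bind repeats of GTTGCC (complement GGCAAC). This motif is in capitals in the stretches of Deup1 (chr9:15627847-15627946, minus strand, the 100 bases before the first of 2 listed starts) and Ccno (chr13:112987552-112987651, plus strand, bases -250 to -151), shown because both genes rose.
Deup1: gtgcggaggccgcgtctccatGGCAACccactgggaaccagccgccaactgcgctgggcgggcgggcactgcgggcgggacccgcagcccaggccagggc
Ccno: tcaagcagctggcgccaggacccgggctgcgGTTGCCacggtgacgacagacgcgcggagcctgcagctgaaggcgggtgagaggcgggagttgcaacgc

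The match began at -79 in Deup1, on the other strand, and at -219 in Ccno. GTTGCC on either strand occurred in 18.5% of the 135 higher genes with a window and in 10.5% of all genes with one, a description with no test.

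Clock genes changed in both directions. Arntl lay at 9.36, 9.70 and 9.46 in Ctrl and from 6.99 (BayTubes 18) to 9.17 (SES 10), median 8.35, after the materials. All 18 samples lay below Ctrl. The fall was -1.30 ± 0.16, or 2.47-fold (adjusted p = 0.000748), and -1.67 and -1.47 within slides 1 and 2. Nr1d2, a nuclear receptor that represses Arntl, rose by 0.75 ± 0.12 (adjusted p = 0.00506), and Per2, the period repressor, by 0.77 ± 0.17 (adjusted p = 0.0254). Nr1d2 was above Ctrl (10.53, 10.62 and 10.56) in all 18 samples, at 10.73 to 11.83, and Per2 in 15.

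Of 19 clock genes tested, these 2 rose and Arntl fell, with a median of 0.23. Without Ctrl 1 or Ctrl 2 the fall of Arntl was the 1 call of the list. Wee1, a kinase that holds back mitosis and is driven by the clock in some tissues, rose by 0.85 ± 0.11 (adjusted p = 0.00112). Whether the hour of dissection moved with the groups was not tested. The nuclear receptor element AGGTCA began at -77 before the start of Nr1d2 (chr14:18239107-18239206, minus strand) and is in capitals in the 100 bases before its start, shown because Nr1d2 was above Ctrl in all 18 samples. AGGTCA occurred in 13.8% of all genes with a window and in 14.8% of the 135.
Nr1d2: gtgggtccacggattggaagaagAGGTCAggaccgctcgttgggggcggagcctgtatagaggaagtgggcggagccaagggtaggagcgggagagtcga

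A pair of genes induced by glucocorticoids rose. Fkbp5, a co-chaperone of the glucocorticoid receptor, lay at 9.90, 9.90 and 9.49 in Ctrl and from 10.22 (SES 10) to 11.10 (BayTubes 20), median 10.72. All 18 samples lay above Ctrl, and the rise was 0.90 ± 0.12, or 1.86-fold (adjusted p = 0.00112). Zbtb16, a transcription factor, rose by 1.05 ± 0.23 (adjusted p = 0.0289), with 12 samples above Ctrl. These were 2 of 20 genes of the list, of which none was called lower, and the median was -0.22. Only 8 of the 20 estimates were above 0, and at an unadjusted p under 0.05 (limma) 5 were higher and 4 lower. Without the array of rCNT 4 and Graphite 16, 2 were called higher and 1 lower. Without each of the Ctrl samples in turn 1 was called. Tsc22d3, a classic target, was at -0.25 ± 0.14 (adjusted p = 0.442). Mthfd1l, an enzyme of mitochondrial folate metabolism, and Tex11, a gene of meiosis, rose by 0.73 ± 0.09 and 0.86 ± 0.11 (adjusted p = 0.00112 for each).

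Among the falls, Spon2 had the smallest p of all genes. This secreted matrix protein also acts in innate immunity. Its values were 10.60, 10.66 and 10.44 in Ctrl and from 8.28 (fullerene 22) to 10.35 (tCNT 7), median 9.39, after the materials. All 18 samples were below Ctrl, tCNT 7 only just. The change was -1.13 ± 0.13, or 2.19-fold (adjusted p = 0.00041), and -1.31 and -1.16 within slides 1 and 2. Aldh2, the mitochondrial enzyme that clears acetaldehyde, was lower by 2.04-fold (-1.03 ± 0.18, adjusted p = 0.00886). It lay at 13.57, 13.21 and 13.43 in Ctrl and from 11.70 to 13.05 in the 18 samples.

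Further falls of 1.68 to 1.85-fold included Ddit4, an inhibitor of mTORC1 induced by stress (-0.85 ± 0.15), the ceramidase gene Acer2 (-0.85 ± 0.15) and Sh3bp5, an exchange factor for Rab11 (-0.83 ± 0.14). In each of these 3 all 18 samples lay below Ctrl. The ribosome assembly gene Kri1 (-0.89 ± 0.16), the splicing factor gene U2af2 (-0.76 ± 0.12), the peroxisome gene Pex10 (-0.75 ± 0.11), the kinase gene Cdc42bpg (-0.75 ± 0.17) and Rprm (-0.74 ± 0.15), a target of p53, fell as well. The histone methyltransferase gene Kmt5c fell by 0.78 ± 0.15. Adjusted p ran from 0.00236 to 0.0268 over these 9 genes. Fibroblast markers gave 2 called falls of 14 tested, Col13a1 (-0.73 ± 0.15) and Dpt (-0.58 ± 0.12), with a list median of -0.20. Neither stayed called without Ctrl 1 or Ctrl 2.

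**Figure D4:**
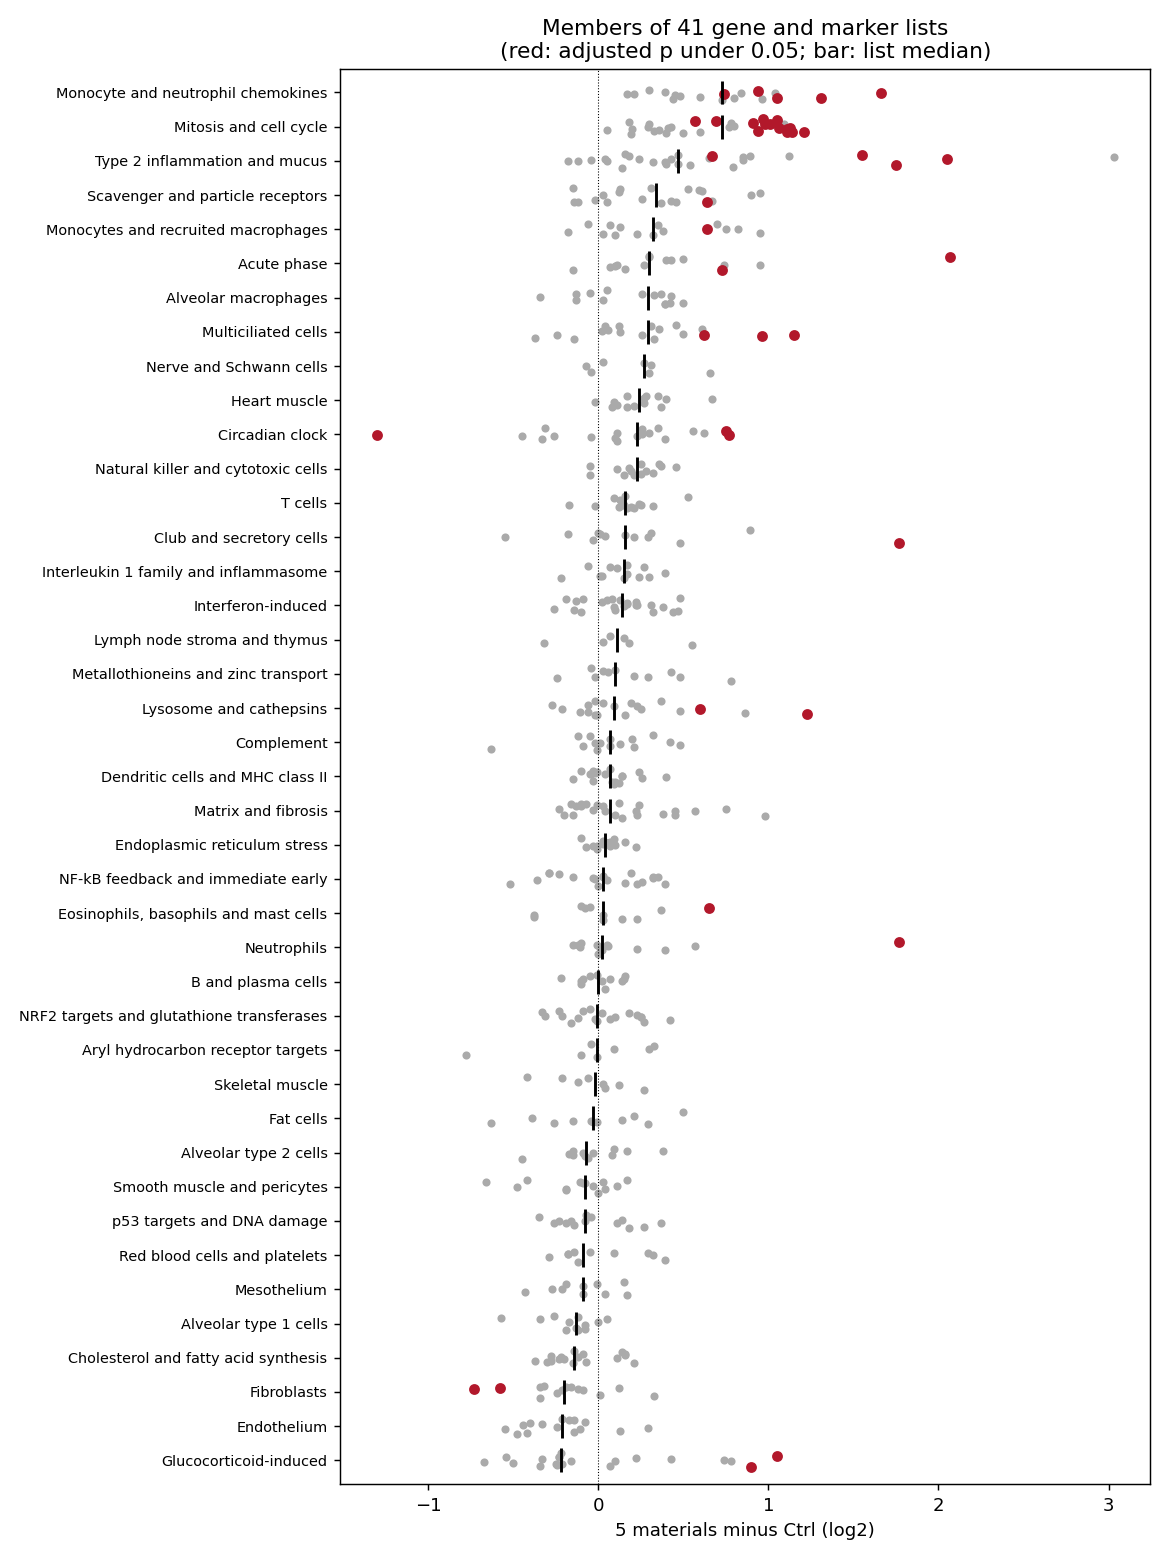
Change (log2, 5 materials minus Ctrl) of every tested member of 41 gene and cell type marker lists, sorted by list median (bar), with called members in red. The chemokine and cell cycle lists have the highest medians (0.73 each) and the glucocorticoid list the lowest (-0.22), while red points are most frequent in the cell cycle list (14 of 32).

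The remaining response lists had no called member. Interferon-induced genes had a median of 0.14 with 0 of 24 called, and 3 higher and 1 lower at an unadjusted p under 0.05 (limma). Isg15, a ubiquitin-like interferon target, was at -0.13 ± 0.23 (adjusted p = 0.846). NF-kB feedback genes had a median of 0.03 with 0 of 20 called, and 3 higher and 1 lower unadjusted. The interleukin 1 and inflammasome list had a median of 0.15 with 0 of 13 called and 1 lower unadjusted. Nlrp3, the inflammasome sensor, was at 0.02 ± 0.11 (adjusted p = 0.967). Matrix and fibrosis genes had a median of 0.07 with 0 of 24 called and 2 higher unadjusted, Timp1 being at 0.98 ± 0.34 (adjusted p = 0.176).

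Stress and metabolic lists were also near the median of all genes. NRF2 targets and glutathione transferases had 0 of 19 called, with 2 higher and 2 lower unadjusted, and Hmox1, which degrades heme, was at 0.23 ± 0.12 (adjusted p = 0.411). Aryl hydrocarbon receptor targets had 0 of 7 called, with 2 higher unadjusted. Cyp1a1, the classic target, was at -0.78 ± 0.64 (adjusted p = 0.606), and its wide error came with a Ctrl 1 value of 11.31 against 7.75 and 7.56. Metallothionein, complement, ER stress, p53 and cholesterol lists had 0 called of 11, 15, 16, 14 and 17, with medians of 0.10, 0.07, 0.04, -0.08 and -0.14. Their counts at an unadjusted p under 0.05 (limma) were 4, 1, 1, 1 and 0 higher and 0, 0, 0, 1 and 3 lower.

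Few markers of other lung cells were called. Alveolar macrophage markers had a median of 0.29 with 0 of 14 called and 4 higher at an unadjusted p under 0.05. Neutrophil markers had a median of 0.02, and the called member was Ltf, which is shared with the club cell list. S100a8, a major neutrophil protein, was at 0.06 ± 0.38, with Graphite 15 at 14.80 and the other 17 samples between 11.14 and 12.26. In eosinophils, basophils and mast cells 1 of 11 was called, Ear6, an eosinophil ribonuclease, at 0.65 ± 0.15 (adjusted p = 0.036). Alveolar type 1, type 2 and endothelial markers had medians of -0.13, -0.07 and -0.21 with 0 called of 12, 12 and 15, and 1, 0 and 4 lower unadjusted. Dendritic, T, natural killer and B cell markers had medians of 0.07, 0.16, 0.23 and 0.00, with 0 called of 19, 14, 14 and 12, and 1, 3, 1 and 0 higher unadjusted. Smooth muscle and mesothelial markers had medians of -0.08 and -0.09, with 0 called of 14 and 10, and 2 and 1 lower unadjusted.

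Heart muscle markers, for which tissue caught at dissection is 1 possible source, had 0 of 14 called and a median of 0.24. Their averaged gene-centred level ranged from -0.97 to 0.45 in Ctrl and from -0.71 to 1.17 in the 18 samples, so it overlapped between groups, and at an unadjusted p under 0.05 (limma) 0 of the 14 differed. The list median ran from -0.21 to 0.42 as samples were left out in turn.

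The materials did not all move these genes alike. An F test among the 5 materials, which leaves Ctrl out, called 48 genes (0.29%), of which 23 were among the 222, 14 higher and 9 lower. Spon2 (adjusted p = 5.67e-06) and Arntl (1.78e-05) stood first. Arntl changed by -2.19 ± 0.18 after BayTubes, -2.15 ± 0.20 after fullerene and -1.0 ± 0.19 after Graphite, but by -0.67 ± 0.21 after SES and -0.52 ± 0.21 after tCNT. Spon2 changed by -1.81 ± 0.14, -1.96 ± 0.16, -0.95 ± 0.15, -0.58 ± 0.17 and -0.35 ± 0.17 in the same order. BayTubes and fullerene were lower than the mean of the other 4 in both genes, by 0.85 to 1.11 on the log2 scale (adjusted p from 0.000194 to 0.00392), and tCNT was higher by 0.99 (0.021) and 0.97 (0.00309).

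Per2 differed in the opposite sense (F test, adjusted p = 0.000417). It was 1.43 ± 0.19 above Ctrl after BayTubes and 1.53 ± 0.21 after fullerene, but 0.12 ± 0.23 after tCNT. Tspan4, a membrane protein, was at 1.00 and 1.11 after BayTubes and fullerene and at 0.09 and 0.14 after tCNT and SES (F test, adjusted p = 0.00016). Mthfd1l and Wee1 were also highest after fullerene, at 1.18 and 1.33, and BayTubes, at 1.04 and 1.19 (F test, adjusted p = 0.000423 and 0.00271). Of the 19 clock genes 8 differed among the materials. For Tex11 the low material was tCNT alone, at 0.36 ± 0.15 against 0.76 to 1.15 in the others (F test 0.0456; tCNT against the other 4, adjusted p = 0.0331).

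The ciliated cell genes ranked the materials in another way. Deup1 was at 1.79 ± 0.18 after BayTubes and 1.55 ± 0.22 after tCNT but at 0.94 ± 0.21, 0.79 ± 0.19 and 0.67 ± 0.20 after SES, Graphite and fullerene (F test, adjusted p = 0.0173). Foxn4 and Ccno had their highest estimates after BayTubes too (0.0063 and 0.0189), and BayTubes exceeded the mean of the other 4 for all 3 genes (adjusted p 0.0151 to 0.043). Foxj1, which was not called in the pooled comparison, was higher after tCNT than after the other 4 by 0.96 ± 0.14 (adjusted p = 0.0124). Ear6 was lowest after fullerene, at 0.06 ± 0.19 (F test, adjusted p = 0.0332; fullerene against the other 4, 0.0347). With slide as a term the F test called 24 genes in all, and with array as a fixed term 3. By contrast Saa3, Ccl8, Cdk1 and Acer2 had F test adjusted p of 0.294, 0.758, 0.504 and 0.975, so a difference among materials was not shown.

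**Figure D5:**
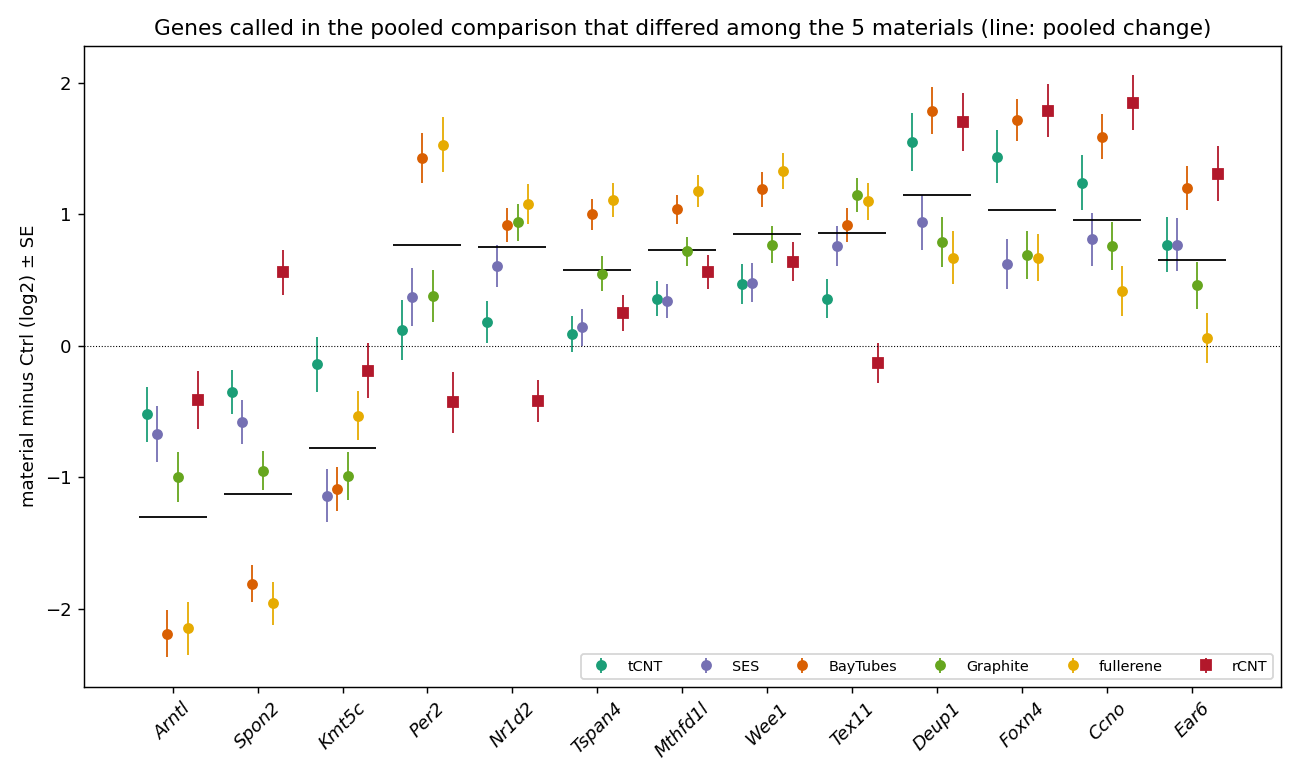
Change against Ctrl (log2, with SE) of 13 genes called in the pooled comparison that also differed among the 5 materials, by material (points), with rCNT as squares and the pooled change as a line. BayTubes and fullerene are the lowest in Arntl and Spon2 and the highest in Per2, while BayTubes and tCNT are the highest of the 5 in Deup1, Foxn4 and Ccno.

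As wholes, the materials were compared each with the other 4. At an adjusted p of 0.05 (limma), tCNT had 15 genes higher (0.0907%) and 4 lower (0.0242%), BayTubes 5 and 5 (0.0302% each), and fullerene 8 (0.0484%) and 6 (0.0363%). SES had 0 higher and 1 lower (0.00605%), and Graphite 0 in both directions, against 206 and 490 genes for SES and 1156 and 1029 for Graphite at an unadjusted p under 0.05. The median change of the 170 higher genes was 0.97 after BayTubes, 0.89 after tCNT, 0.68 after Graphite, 0.66 after fullerene and 0.49 after SES. The 52 lower genes had medians of -0.67, -0.28, -0.68, -0.53 and -0.54 in that order. Tested singly against Ctrl, 165 of the 170 and 50 of the 52 passed an adjusted p of 0.05 (limma) after BayTubes. The counts were 91 and 3 after tCNT, 48 and 35 after Graphite, 18 and 12 after fullerene and 0 and 0 after SES. These medians and counts share the Ctrl samples and describe genes chosen from the pooled mean.

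The response to rCNT was set against the mean of the 5 materials. It differed in 4334 genes, 2284 higher (13.8%) and 2050 lower (12.4%). Of the 170 genes that rose, rCNT was higher than the 5 materials in 131 and lower in 8, and of the 52 that fell it was higher in 23 and lower in 6. The chemokines and mucus genes were far higher after rCNT. Its value exceeded the mean of the 5 by 3.83 ± 0.45 for Saa3 (adjusted p = 5.07e-06), 3.81 ± 0.33 for Slc26a4 (1.86e-07), 3.47 ± 0.34 for Ccl8 (7.27e-07) and 1.96 ± 0.31 for Retnla (0.000133). All 18 chemokines and cytokines of that list and 28 of 32 cell cycle genes were higher after rCNT than after the 5 materials. So were 17 of 24 interferon-induced genes, a list with 0 called for the 5 materials against Ctrl.

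Some genes ran the other way. Spon2 was higher after rCNT than after the 5 materials by 1.69 ± 0.13 (adjusted p = 4.26e-08), with rCNT samples at 11.10, 11.44 and 11.03, above the Ctrl values. Arntl was higher by 0.90 ± 0.16 (0.000333), whereas Nr1d2 was lower by 1.17 (-1.17 ± 0.12, adjusted p = 1.45e-06), Per2 by 1.19 (-1.19 ± 0.17, 3.92e-05) and Tex11 by 0.99 (-0.99 ± 0.11, 4.39e-06). Cxcr1, a neutrophil chemokine receptor, rose by 1.11 ± 0.27 after the 5 materials (limma adjusted p = 0.0437). It was lower after rCNT than after them by 1.02 (-1.02 ± 0.27, adjusted p = 0.00799). The call of its rise was lost in 14 of 24 left-out fits, and 13 of the 18 samples lay above Ctrl and 2 below. Prmt1, an arginine methyltransferase, fell by 0.56 ± 0.13 after the 5 materials and was 1.18 ± 0.13 higher after rCNT (adjusted p = 1.83e-06). For Fkbp5, Acer2, Sh3bp5 and Aldh2 a difference between rCNT and the 5 materials was not shown (adjusted p = 0.294, 0.589, 0.788 and 0.952), with estimates of -0.18 ± 0.12, -0.13 ± 0.15, -0.06 ± 0.14 and -0.02 ± 0.18.

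In 12 of 19 clock genes and 9 of 20 glucocorticoid-induced genes rCNT was lower than the 5 materials, and in 3 and 2 it was higher. The 5 materials were thus milder than rCNT in most of the genes that rose. Of the 52 genes that fell, rCNT was above the 5 materials in 23 and below them in 6. Their median change was -0.34 after rCNT and -0.55 after the 5 materials, for genes chosen from the pooled mean. In Arntl, Nr1d2, Per2 and Spon2 the mean of the 5 materials was not the milder side. Against Ctrl, Arntl was at -0.41 after rCNT and -1.30 in that mean, Nr1d2 at -0.42 and 0.75, Per2 at -0.43 and 0.77, and Spon2 at 0.56 and -1.13. Single materials differed. After tCNT these genes were at -0.52, 0.18, 0.12 and -0.35, smaller in size than after rCNT except in Arntl. After BayTubes they were at -2.19, 0.92, 1.43 and -1.81. Per2 was at 0.37 after SES and 0.38 after Graphite. Single materials were not tested against rCNT.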

How the data were processed

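The authors deposited log2 signals for every spot in every sample. Per the submitters' processing notes, Agilent Feature Extraction and limma were used; versions and settings are not given in the sources used here. Once sorted, the values of all samples lay within 0.086 of each other, as after quantile normalization. Of 62976 spots, 31465 had a gene name and 31511 did not; names were updated through RefSeq GRCm38.p6 (29050 by accession, 2061 by symbol, 349 by synonym, 5 kept). Genes were kept if 3 or more samples exceeded their own 40th percentile (5.69 to 5.75), with the brightest spot standing for the gene, which left 16530 of 20738 genes.

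Changes were fitted with limma 3.58.1 (R 4.3.3, statmod 1.5.0) on all 24 samples: group means, dye as a term, array as a random block (correlation 0.399), 16 residual degrees of freedom and 3.54 from the variance prior. Tests were 2-sided with Benjamini-Hochberg adjustment over the genes of a comparison. A fitted change can differ from a difference of group means, since samples of an array inform each other. The median SE of the pooled change was 0.118. Nothing in the labels says that samples come from separate experiments, so p-values measure the spread between these pools.

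The members, lists and rules were chosen with earlier results of these data known. Genes that could be named were the 12 largest called rises and falls, the 6 largest of each with no overlap with Ctrl, the 6 called genes with the smallest F test p, and per list the 3 called members with the smallest p and its first 2 members. Foxn4, Cxcr1, Tex11, Prmt1, Il33 and Ccl6 were chosen after their values were seen, as were the promoters and motifs shown. Lists are described by counts and medians, with no set test.

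In simulated data with 200 changed genes the pooled comparison recovered 76.1% of 1.5-fold, 89.6% of 2-fold and 98.5% of 4-fold changes, and 4.86% of its calls were false. There the F test among the 5 materials called 0 genes, against 48 in the measured data. Whether these rates hold for the measured data was not tested. Alternatives changed the dye term, array block, filter, scaling, spot, variance prior, sample weights, threshold, slide, materials pooled and samples. Fits to fewer samples took the array correlation from all 24, and a lone sample of a group was assumed to vary as other groups do.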

Additional observations from a re-analysis of the deposited data

Results flagged for a closer look

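In groups of 4 samples, 18 lone samples were found among 213 combinations of gene and group, where chance gives about 1 in 20. Fullerene 21 gave 7 of them. It stood above the other 3 fullerene samples in Saa3 (12.35 against 8.79 to 8.93), Slc26a4 (10.22 against 8.80 to 9.00), AA467197 (9.71 against 8.09 to 8.29), Ccl2 (9.55 against 7.71 to 7.95), Cxcl1 (7.52 against 6.58 to 6.66), Saa1 (10.30 against 7.90 to 8.24) and Scgb1a1 (17.97 against 17.40 to 17.44). The value 17.97 recurred as the highest value of Sftpc, as in Ctrl 1 and SES 11, so the Scgb1a1 difference is hard to read. Graphite 13 was apart from the other Graphite samples in Ccna2 (9.35 against 8.31 to 8.44), Nr1d2 (11.83 against 11.43 to 11.50) and Ager (13.22 against 14.21 to 14.36).

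BayTubes 18 was apart in Cdc42bpg (8.70 against 8.20 to 8.28) and Nlrp3 (5.60 against 6.36 to 6.42), BayTubes 20 in Wee1 (9.53 against 9.09 to 9.13) and Il33 (12.68 against 12.11 to 12.21), and BayTubes 17 in Clca1 (12.51 against 10.29 to 10.58). Fullerene 22 was apart in Col13a1 (7.27 against 6.63 to 6.74) and Isg15 (10.26 against 11.28 to 11.35), and fullerene 23 in Per2 (9.64 against 10.28 to 10.36).

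Among the genes named, 14 differed among the 5 materials by the F test of limma. Adjusted p was 5.67e-06 for Spon2, 1.78e-05 for Arntl, 0.00016 for Tspan4, 0.000417 for Per2, 0.000423 for Mthfd1l, 0.00271 for Wee1, 0.0063 for Foxn4, 0.0172 for Foxj1, 0.0173 for Deup1, 0.0189 for Ccno, 0.0206 for Nr1d2, 0.0332 for Ear6, 0.0383 for Kmt5c and 0.0456 for Tex11.

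Among 16650 spots without a gene name, which no comparison used, 8 (0.048%) passed an adjusted p of 0.05 for the 5 materials against Ctrl, 6 higher and 2 lower.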

How the results depend on the processing

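No paired analysis was possible because the replicate numbers run from 1 to 24 and no group shares one with another; arrays pair some samples across groups, and the fit with array as a fixed term compares within them. For the 5 materials against Ctrl the 222 calls became 120 with the array ignored, 0 with array as a fixed term (2262 genes at an unadjusted p under 0.05), 1140 with sample quality weights, 49 at an adjusted p of 0.01, 142 at 1.5-fold or more, 385 with a slide term, 3 within slide 1 and 855 within slide 2; with 4 materials pooled it was 385 without SES and 56 without BayTubes, and left-out samples gave 11 to 360. The F test's 48 genes became 29 with no dye term, 15 with the array ignored, 3 with array fixed, 740 with weights, 9 at 0.01, 24 with a slide term, 0 within slide 1 (2119 unadjusted) and 2031 within slide 2, and 12 to 65 with samples left out. The 4334 genes of rCNT against the 5 became 936 with array fixed, 2570 at 0.01, 1511 at 1.5-fold and 2734 within slide 2 (3097 to 5056 with samples left out). The 44 calls of single materials against the other 4 became 18, 14, 0 (3390 unadjusted), 1217, 10, 26, 24, 15 and 3586 with no dye term, the array ignored, array fixed, weights, 0.01, 1.5-fold, a slide term, slide 1 and slide 2, and 230 without rCNT or 75 without the array of rCNT 4 and Graphite 16 (14 to 126 with samples left out). The 246 genes without overlap with Ctrl numbered 248 to 607 with samples left out. The fitted change of Cxcl1 reversed sign within slide 2 (-0.0489), although all 18 samples of the 5 materials lay above Ctrl. The dye term within slide 2 rested on Graphite 13 and Graphite 14. Over the named genes and list medians, 442 values lost a call and 22 gained one; 217 values with no call (genes that were not called, or list medians) moved by more than their SE or spread, and the remaining 4693 did none of these. Other alternatives kept these counts within 1.5 times. Fits within a slide have fewer samples and leave 1 sample in some groups, so their number of calls says little about the 222. Other causes were not tested.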
